A study of Mus musculus with 24 samples.

Results

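The nucleoside transporters of the Slc29 and Slc28 families were examined in splenic monocytes of mice that lack one of them, Slc29a3. The members were drawn from these families, not by a threshold on their values, and comprised Slc29a1, Slc29a2, Slc29a3, Slc29a4, Slc28a2, and Slc28a3. They are 6 of the 23930 genes in the table. Slc28a1, also of these families, was not among the members and is described below. RNA had been sequenced from Ly6Chi and Ly6Clow monocytes, which the sample labels call splenic macrophages, of untreated mice of 3 genotypes, WT, Slc29a3-/-, and Slc29a3-/- Tlr7-/-, which makes 6 groups of 4 libraries. All mice were C57BL/6, and both mutations had been made with CRISPR/Cas9. The age of the mice behind the libraries is not given in the sources used here. The Slc29a3-/- allele carries a stop codon inserted into exon 2 of Slc29a3, and the Tlr7-/- allele lacks 4 bases of Tlr7. Both alleles are germline, so that every cell of the mouse carried them. Cells that bound antibodies to T cells, B cells, NK cells, neutrophils, or erythroid cells had been depleted with magnetic beads, and the monocytes were then sorted by CD11b, Ly6C, and FcγRIV, the product of Fcgr4.

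Nucleosides cross membranes through these proteins. The SLC29 family, the equilibrative nucleoside transporters, lets nucleosides move down their concentration gradient, and the SLC28 family, the concentrative nucleoside transporters, couples their uptake to sodium. SLC29A3 works in the membrane of late endosomes and lysosomes, from which it releases the nucleosides left by the breakdown of nucleic acids in engulfed cells, whereas most other members act at the plasma membrane. Loss of SLC29A3 in humans causes histiocytosis, an accumulation of mononuclear phagocytes, and TLR7 is an endosomal receptor for guanosine and single-stranded RNA.

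The libraries had been made with the Ion AmpliSeq Transcriptome Mouse kit, which amplifies 1 short stretch (an amplicon) per gene, and the values are reads scaled to 1000000 per library (RPM). The level of one gene can therefore be compared between libraries, but not with the level of another gene. Libraries held 12311037 to 14572266 reads, as inferred from the even step between low values. A value of 0 allows up to 3 reads, or 0.206 to 0.244 RPM (counting error only, since PCR reads are not independent molecules). WT replicates 1 to 3 of both subsets, with barcodes 11 to 16, stood apart from WT replicate 4. The Euclidean distance between log2 profiles was at most 24.3 among these 3 Ly6Chi libraries and at least 63.7 to the fourth, and 44.4 and 67.4 were the same limits in Ly6Clow monocytes. Over all genes, distances to WT replicate 4 were 68.5 to 69.6 in Ly6Chi and 71.4 to 82.5 in Ly6Clow monocytes. Those between Slc29a3-/- Tlr7-/- libraries were as large, at 66.7 to 89.3 and 63.6 to 108.5. Those between Slc29a3-/- libraries were smaller, at 44.6 to 61.4 and 37.4 to 47.0. All Slc29a3-/- and Slc29a3-/- Tlr7-/- libraries carried barcodes outside 11 to 16, as WT replicate 4 did. Genotype and this set of libraries cannot be told apart in WT replicates 1 to 3. Each difference from WT called for a member or a gene of nucleoside handling is therefore repeated with WT replicate 4 alone standing for WT. That fit assumes that WT varies as the other groups do. Calls of cell type markers against WT were not repeated in this way. The immediate early genes Fos, Fosb, Egr1, and Jun, which rise within minutes of cell stimulation or handling, summed to 6142 to 6698 RPM in Ly6Chi and 3892 to 5834 RPM in Ly6Clow libraries of WT replicates 1 to 3. WT replicate 4 held 176.6 and 157.2 RPM and the mutant libraries 104.3 to 995.8 RPM. These sums moved with every difference from WT, and their part in those differences was not tested. Sex-linked genes marked WT replicate 4, alone among the WT libraries, as male. Xist, read in females, was also under 1 RPM in replicate 1 of each mutant group and in Slc29a3-/- Tlr7-/- Ly6Clow replicate 3. The Y-linked gene Ddx3y averaged 65.3 RPM (at most 106 RPM) in Slc29a3-/- Tlr7-/- Ly6Chi libraries. Only 1 of these had Xist under 1 RPM, so some held reads of both genes. The part of sex in the differences was not tested. Fcgr4 averaged 33.6 ± 6.14 RPM in Ly6Chi and 744 ± 95.3 RPM in Ly6Clow WT monocytes (SD, n = 4 each). Ccr2, a chemokine receptor of Ly6Chi monocytes, was read at 323 to 1783 RPM in Ly6Chi and 23.8 to 223 RPM in Ly6Clow WT libraries, and the subsets did not overlap within any genotype. Both markers thus followed the labels of the subsets. The labels do not say that the libraries of a group came from separate mice, and p-values measure the spread between these libraries only.

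The sequence of the targeted stretch of Slc29a3 is shown because the genotype of the study rests on it. Exon 2 of Slc29a3, 1 of 6 exons of the transcript used, spans chr10:60750386-60750684 on the minus strand of mm10, is 299 bases long, and is coding throughout. The capitals mark the 20 bases, chr10:60750608-60750627, opposite which the guide RNA of the study lies. The guide reads on the strand opposite to the transcript, and its PAM, GGG, is the complement of the 3 bases just before the capitals.
Slc29a3 exon 2: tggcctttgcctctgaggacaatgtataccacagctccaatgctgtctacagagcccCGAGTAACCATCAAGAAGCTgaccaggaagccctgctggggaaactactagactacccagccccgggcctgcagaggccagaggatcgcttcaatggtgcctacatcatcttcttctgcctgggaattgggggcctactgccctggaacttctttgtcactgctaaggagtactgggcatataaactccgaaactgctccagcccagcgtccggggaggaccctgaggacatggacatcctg
An inserted stop codon does not remove the gene from the genome, and where the Slc29a3 amplicon lies relative to this site is not given in the sources used here. Its reads therefore do not check the genotype, which rests on the sample labels, and they measure Slc29a3 RNA, not SLC29A3 protein. The same holds for Tlr7, which was read at 111 to 344.5 RPM in every Ly6Chi and at 298 to 627 RPM in every Ly6Clow library.

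Of the 6 members, 4 reached 1 RPM in at least 4 libraries and were tested with limma on the log2(RPM + 1) scale over all genes that passed the same filter, where a gene was called if its p, adjusted by Benjamini-Hochberg, was under 0.05. The 2 other members, Slc29a4 and Slc28a3, had at most 1 read in any library. Between the Ly6Chi and Ly6Clow subsets, Slc29a1, Slc29a3, and Slc28a2, 3 of the 4 members tested, were called in WT, where 29.6% of all genes tested were called. The same 3 members were called in Slc29a3-/- (41.2% of all genes) and in Slc29a3-/- Tlr7-/- monocytes (33.3%). In Ly6Chi monocytes 1 member was called between Slc29a3-/- and WT (27.9% of all genes) and none between Slc29a3-/- Tlr7-/- and WT (1.46%). In the same subset 2 members were called between Slc29a3-/- and Slc29a3-/- Tlr7-/- (20.4%). In Ly6Clow monocytes limma called no member between Slc29a3-/- and WT (4.64% of all genes), Slc29a3-/- Tlr7-/- and WT (8.87%), or Slc29a3-/- and Slc29a3-/- Tlr7-/- (1.93%). At an unadjusted p under 0.05, the member counts in these comparisons without a call were 1 for Slc29a3-/- Tlr7-/- against WT in Ly6Chi monocytes and 1, 0, and 1 in the order given for Ly6Clow monocytes. An interaction term over all 24 libraries tested whether a genotype difference was unequal in the 2 subsets. It called no member for Slc29a3-/- against WT (8.85% of all genes), Slc29a3-/- Tlr7-/- against WT (0.0634%), or Slc29a3-/- against Slc29a3-/- Tlr7-/- (8.97%), with 2, 0, and 2 members at an unadjusted p under 0.05. With 4 members tested, these shares describe the members and do not set them apart from other genes. In bulk samples such as these, fewer cells of a type and less RNA per cell cannot be told apart.

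**Figure D1:**
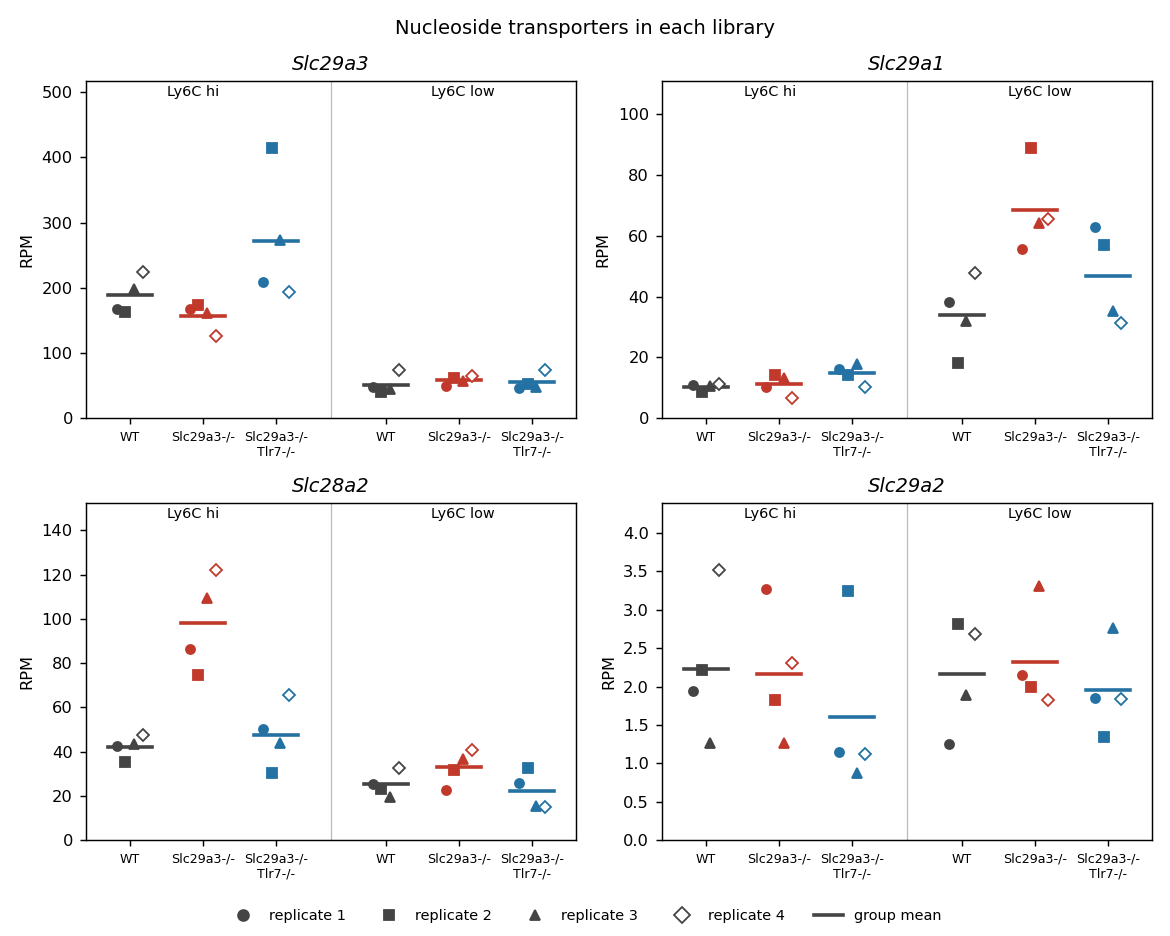
RPM of the 4 tested members in each library (vertical axes, linear from 0, 1 scale per gene) by subset and genotype, with 4 libraries per group, a symbol for each replicate number (replicate 4 is open), and a bar at the group mean. Slc29a3 sits between 127 and 413 RPM in the Ly6Chi and between 40.7 and 74.1 RPM in the Ly6Clow libraries, Slc29a1 is higher in every Ly6Clow than in every Ly6Chi library, and Slc28a2 is highest in the Slc29a3-/- Ly6Chi libraries.

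Slc29a3, the lysosomal exporter (chromosome 10, 60712072 to 60752794, minus strand), was read at 168, 163, 198, and 225 RPM in the 4 WT Ly6Chi libraries (188.5 ± 28.8 RPM, mean ± SD, n = 4, as for all such values). The Slc29a3-/- Ly6Chi libraries held 167, 173, 162, and 127 RPM (157 ± 21.03 RPM). The Slc29a3-/- Tlr7-/- Ly6Chi libraries held 208, 413, 273, and 194 RPM (272 ± 100.4 RPM). WT overlapped with both mutant groups, whereas every Slc29a3-/- Tlr7-/- library lay above every Slc29a3-/- library, with the highest value and much of the spread in replicate 2. In Ly6Clow monocytes the WT libraries held 47.2, 40.7, 45.1, and 74.0 RPM (51.8 ± 15.1). The Slc29a3-/- libraries held 49.9, 61.4, 57.4, and 64.3 RPM (58.2 ± 6.25), and the Slc29a3-/- Tlr7-/- libraries 47.0, 52.8, 47.6, and 74.1 RPM (55.4 ± 12.8). The 3 genotypes overlapped fully in that subset, and every Ly6Clow library lay below every Ly6Chi library.

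Slc29a3 was thus higher in Ly6Chi than in Ly6Clow monocytes of each genotype, by 1.87 ± 0.21 in WT (log2 difference ± SE, adjusted p = 1.8e-07), by 1.41 ± 0.21 in Slc29a3-/- (adjusted p = 5.6e-06), and by 2.23 ± 0.21 in Slc29a3-/- Tlr7-/- monocytes (adjusted p = 7.9e-09). These correspond to 3.66-, 2.67-, and 4.71-fold. When WT replicate 4 alone stood for WT, the WT difference was 1.59 (adjusted p = 0.029). Within Ly6Chi monocytes, Slc29a3 was lower in Slc29a3-/- than in Slc29a3-/- Tlr7-/- libraries by 0.73 on the log2 scale (95% interval -1.17 to -0.29, adjusted p = 0.023), while the median of all genes stood at -0.12 in that comparison. The call did not hold with TMM scaling (-0.58, adjusted p = 0.054) or without a filter on low values (adjusted p = 0.059). It was also lost without Slc29a3-/- replicate 4 (-0.63, adjusted p = 0.079) and without Slc29a3-/- Tlr7-/- replicate 3 (-0.71, adjusted p = 0.054), with the direction unchanged in these 4 alternatives. Slc29a3 did not pass the test between Slc29a3-/- and WT Ly6Chi monocytes (-0.26, interval -0.70 to 0.19, adjusted p = 0.38). Nor did it pass between Slc29a3-/- Tlr7-/- and WT (0.47, interval 0.03 to 0.92, unadjusted p = 0.038, adjusted p = 0.19). Against WT replicate 4 alone these differences were -0.52 and 0.21. In Ly6Clow monocytes the 3 differences between genotypes lay between 0.09 and 0.20 (adjusted p 0.63 to 0.83), with intervals from -0.35 to 0.63. The difference of the Slc29a3-/- effect relative to Slc29a3-/- Tlr7-/- between the subsets was -0.82 ± 0.30 (unadjusted p = 0.011, adjusted p = 0.086). With single libraries left out, it passed the threshold only when replicate 4 of either Slc29a3-/- Tlr7-/- subset was left out (adjusted p 0.044 without the Ly6Chi and 0.041 without the Ly6Clow library). By mean level the groups ran from Slc29a3-/- Tlr7-/- through WT to Slc29a3-/- in Ly6Chi monocytes. In Ly6Clow monocytes they ran on from Slc29a3-/- through Slc29a3-/- Tlr7-/- to WT. Of the neighbours in this order only the Slc29a3-/- groups of the 2 subsets differed beyond their spread.

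**Figure D2:**
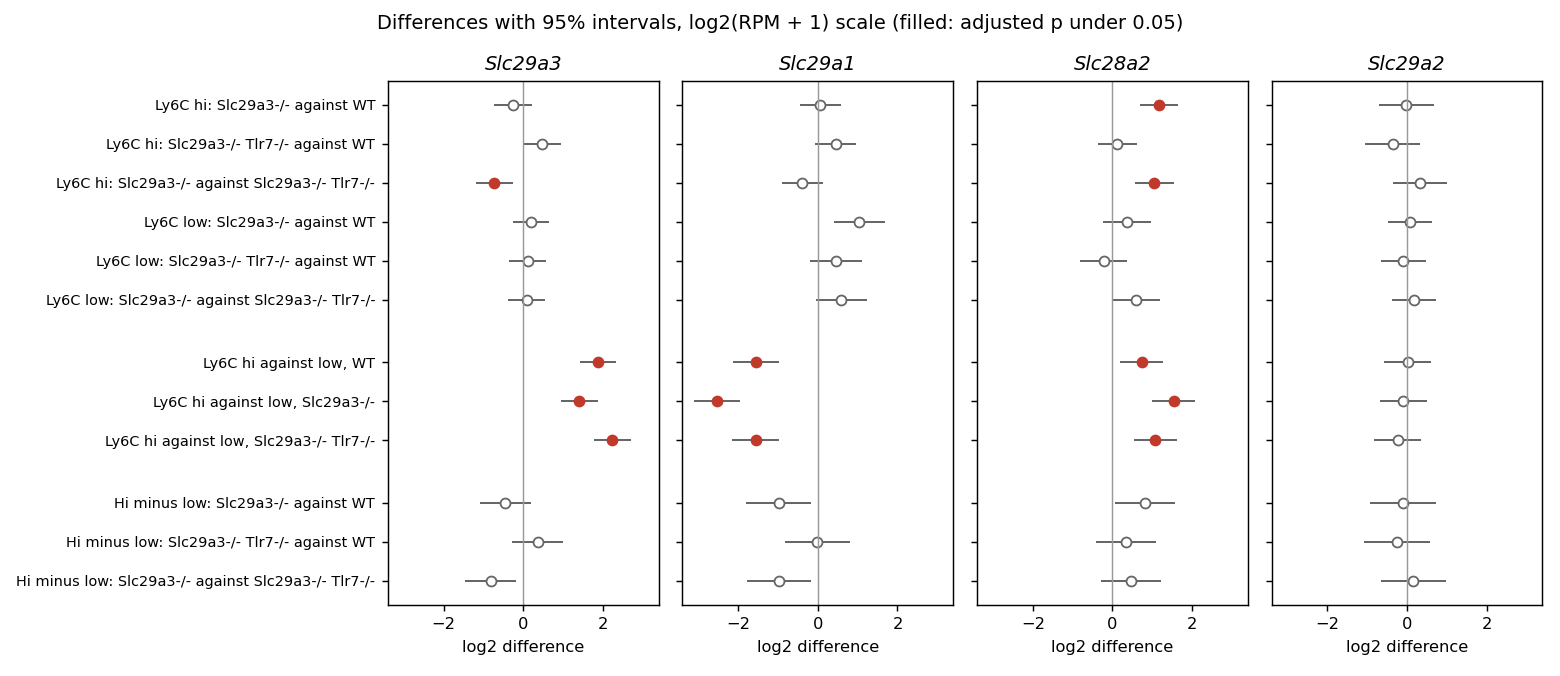
Log2 differences on the log2(RPM + 1) scale (horizontal axes) with 95% intervals (lines) for 4 members in 12 comparisons (rows); filled points passed an adjusted p under 0.05 in limma, and the lowest 3 rows are differences of an effect between the subsets. The 3 rows of Ly6Chi against Ly6Clow hold calls for Slc29a3, Slc29a1, and Slc28a2, with Slc29a1 on the negative side, and the rows of Slc29a2 all cross 0.

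Slc29a1, the equilibrative transporter of purine and pyrimidine nucleosides at the plasma membrane of most cells (chromosome 17, 45585200 to 45599606, minus strand), showed the opposite order of the subsets. It was read at 10.9, 8.67, 10.5, and 11.4 RPM in the WT Ly6Chi libraries (10.4 ± 1.18). The values were 10.4, 14.3, 13.3, and 6.83 RPM in Slc29a3-/- (11.2 ± 3.36) and 16.3, 14.4, 17.9, and 10.4 RPM in Slc29a3-/- Tlr7-/- Ly6Chi libraries (14.7 ± 3.22). In Ly6Clow monocytes the WT libraries held 38.4, 18.1, 32.1, and 47.8 RPM (34.1 ± 12.5). The Slc29a3-/- libraries held 55.6, 88.6, 64.3, and 65.5 RPM (68.5 ± 14.1), and the Slc29a3-/- Tlr7-/- libraries 63.0, 57.0, 35.2, and 31.2 RPM (46.6 ± 15.7). No Ly6Chi library reached the lowest Ly6Clow library, WT replicate 2. Within Ly6Clow monocytes every Slc29a3-/- library lay above every WT library, and the Slc29a3-/- Tlr7-/- libraries overlapped with both.

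Slc29a1 was lower in Ly6Chi than in Ly6Clow monocytes of each genotype, by 2.93-fold in WT (log2 difference -1.55 ± 0.27, adjusted p = 7.5e-05), 5.79-fold in Slc29a3-/- (-2.53 ± 0.27, adjusted p = 3e-08), and 2.95-fold in Slc29a3-/- Tlr7-/- monocytes (-1.56 ± 0.27, adjusted p = 6.5e-05). When WT replicate 4 alone stood for WT, the difference was -1.98 (adjusted p = 0.029). In Ly6Clow monocytes Slc29a1 stood 1.04 ± 0.29 above WT in Slc29a3-/- libraries on the log2 scale (interval 0.42 to 1.66, unadjusted p = 0.0028), but missed the threshold after adjustment (adjusted p = 0.055). It passed with TMM scaling (1.04, adjusted p = 0.041), with RLE scaling (1.02, adjusted p = 0.039), with all 24 libraries in one fit (1.04, adjusted p = 0.019), and without WT replicate 4 (1.23, adjusted p = 0.015). It stood at 0.49 (adjusted p = 0.80) against WT replicate 4 alone. The differences of Slc29a3-/- Tlr7-/- from WT (0.46, interval -0.16 to 1.08) and of Slc29a3-/- from Slc29a3-/- Tlr7-/- (0.59, interval -0.03 to 1.21) did not pass in Ly6Clow monocytes, with adjusted p of 0.30 and 0.28. In Ly6Chi monocytes the genotype differences were 0.06, 0.45, and -0.39 for Slc29a3-/- against WT, Slc29a3-/- Tlr7-/- against WT, and Slc29a3-/- against Slc29a3-/- Tlr7-/- (adjusted p 0.86, 0.26, and 0.26). The effect of Slc29a3-/- relative to WT differed between the subsets by -0.98 ± 0.38 (adjusted p = 0.12; 0.049 without WT Ly6Clow replicate 4), and that relative to Slc29a3-/- Tlr7-/- by -0.97 ± 0.38 (adjusted p = 0.11). No neighbouring genotypes of a subset in the order of mean levels, from Slc29a3-/- to WT in Ly6Clow and from Slc29a3-/- Tlr7-/- to WT in Ly6Chi monocytes, differed by an adjusted p under 0.05.

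Slc29a2 (chromosome 19, 5023860 to 5031972, plus strand), an equilibrative transporter of the plasma membrane that also carries nucleobases, was read at a low level in all 24 libraries, from 0.87 to 3.51 RPM and with at most 45 reads. Group means ran from 1.60 ± 1.11 RPM in Slc29a3-/- Tlr7-/- Ly6Chi to 2.32 ± 0.67 RPM in Slc29a3-/- Ly6Clow monocytes, and all 6 groups overlapped. In the 12 comparisons its log2 differences lay between -0.35 and 0.33, with intervals reaching from -1.06 to 0.99, and none had an unadjusted p under 0.05 (lowest 0.28, adjusted p 0.49 to 0.97). At this depth a difference within those intervals was not detectable, and the log2(RPM + 1) scale understates the change of a gene this low.

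Slc28a2 (chromosome 2, 122426477 to 122461137, plus strand), the sodium-coupled transporter of purine nucleosides and uridine, was the only member called between Slc29a3-/- and WT. Its WT Ly6Chi libraries held 42.4, 35.5, 43.4, and 47.7 RPM (42.3 ± 5.06). Its Slc29a3-/- Ly6Chi libraries held 86.3, 74.5, 109, and 122 RPM (98.0 ± 21.5), and its Slc29a3-/- Tlr7-/- Ly6Chi libraries 50.1, 30.5, 43.8, and 65.6 RPM (47.5 ± 14.6). All 4 Slc29a3-/- libraries lay above all 8 other Ly6Chi libraries, and the WT and Slc29a3-/- Tlr7-/- libraries overlapped. In Ly6Clow monocytes the values were 25.6, 23.3, 19.5, and 32.6 RPM in WT (25.2 ± 5.55) and 22.8, 31.8, 36.8, and 40.8 RPM in Slc29a3-/- libraries (33.04 ± 7.76). The Slc29a3-/- Tlr7-/- libraries held 26.004, 32.8, 15.5, and 14.9 RPM (22.3 ± 8.66), and all 3 groups overlapped.

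In Ly6Chi monocytes Slc28a2 was 2.26-fold higher in Slc29a3-/- than in WT (log2 difference 1.18 ± 0.21, interval 0.72 to 1.63, adjusted p = 0.0015) and 2.08-fold higher than in Slc29a3-/- Tlr7-/- monocytes (1.05 ± 0.21, interval 0.60 to 1.51, adjusted p = 0.0032). The first comparison shares its Slc29a3-/- libraries with the second, and the median of all genes was -0.14 and -0.12 in them. Leaving out any 1 library kept both calls, with the difference from WT between 1.06 and 1.30 and that from Slc29a3-/- Tlr7-/- between 0.86 and 1.22. Against WT replicate 4 alone the difference was 1.00 and did not pass (adjusted p = 0.20), in a fit that called 1.53% of all genes. Slc29a3-/- Tlr7-/- and WT Ly6Chi libraries stood 0.12 apart (interval -0.33 to 0.58, adjusted p = 0.77). In Ly6Clow monocytes the difference was 0.37 for Slc29a3-/- against WT (interval -0.20 to 0.94, adjusted p = 0.48). It was -0.22 for Slc29a3-/- Tlr7-/- against WT (adjusted p = 0.60) and 0.59 for Slc29a3-/- against Slc29a3-/- Tlr7-/- (unadjusted p = 0.044, adjusted p = 0.25). The difference of the Slc29a3-/- effect relative to WT between the subsets, 0.81 ± 0.35, did not pass (adjusted p = 0.17), and that relative to Slc29a3-/- Tlr7-/- was 0.46 ± 0.35 (adjusted p = 0.43).

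Between the subsets Slc28a2 was higher in Ly6Chi monocytes, by 1.55 ± 0.25 in Slc29a3-/- (adjusted p = 1.7e-05), by 1.08 ± 0.25 in Slc29a3-/- Tlr7-/- (adjusted p = 0.0015), and by 0.74 ± 0.25 in WT monocytes (adjusted p = 0.027). The groups overlapped in Slc29a3-/- Tlr7-/- mice, where the lowest Ly6Chi library lay below the highest Ly6Clow library, and did not overlap in the other genotypes. The WT call was the least firm of the 3. It was lost without a filter (adjusted p = 0.056) and with WT replicate 4 alone (0.53, adjusted p = 0.72). It was also lost without WT Ly6Chi replicate 1 (0.73), 3 (0.72), or 4 (0.68) or WT Ly6Clow replicate 2 (0.71) or 3 (0.63), with adjusted p from 0.055 to 0.094. By mean level Slc29a3-/- Ly6Chi stood above Slc29a3-/- Tlr7-/- and WT Ly6Chi monocytes, which did not differ beyond their spread, and the 3 Ly6Clow groups followed without a call among them.

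Some of the Slc28a2 reads could belong to a near-identical neighbour. Gm14085 (chromosome 2, 122484941 to 122528040, plus strand) lies next to Slc28a2, and the coding sequences of both, 1980 bases each, were 94.7% identical. Its own amplicon was read at 3.18 to 5.88 RPM in the Slc29a3-/- Ly6Chi libraries (4.26 ± 1.27), at 1.87 to 3.19 RPM in WT (2.59 ± 0.57), and at 0.89 to 3.004 RPM in Slc29a3-/- Tlr7-/- Ly6Chi libraries (2.17 ± 0.96). Its difference between Slc29a3-/- and WT was 0.54 (adjusted p = 0.16) and that between Slc29a3-/- and Slc29a3-/- Tlr7-/- 0.76 (adjusted p = 0.062). The log2(RPM + 1) scale understates the change of a gene this low. As ratios of mean RPM these differences were 1.65 and 1.96 for Gm14085, and 2.32 and 2.06 for Slc28a2. How reads were divided between the 2 genes is not given in the sources used here, and the level of each is uncertain to that extent.

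The remaining members were not detectable at this depth. Slc29a4 (chromosome 5, 142692512 to 142722490, plus strand), a transporter of monoamines and, at acid pH, of adenosine, had 1 read in 1 of 24 libraries, Slc29a3-/- Ly6Clow replicate 2. Slc28a3 (chromosome 13, 58545399 to 58610877, minus strand), the concentrative transporter of both purine and pyrimidine nucleosides, had 1 read each in 2 libraries, Slc29a3-/- replicate 3 and Slc29a3-/- Tlr7-/- replicate 2 of the Ly6Chi subset. The only other gene of the 2 families in the lists, the pyrimidine nucleoside transporter Slc28a1 (chromosome 7, 81114799 to 81170416, plus strand), had 1 read each in 3 libraries. No test was made of Slc29a4, Slc28a3, or Slc28a1, since no group exceeded what a count of 0 allows. Gm14085, described above for its likeness to Slc28a2, was in none of the lists and had reads in 23 of 24 libraries.

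Markers of other cells moved with these results. In the Ly6Chi subset the summed level of 8 neutrophil markers was 73420 to 135600 RPM in Slc29a3-/-, 23420 to 32270 RPM in WT, and 12900 to 39320 RPM in Slc29a3-/- Tlr7-/- libraries. All 8 genes were called higher in Slc29a3-/- libraries in both comparisons. They include Ly6g, the antigen by which neutrophils were gated out, at 91.3 ± 35.2 RPM against 28.1 ± 6.99 RPM in WT, and S100a8 and S100a9, which Ly6Chi monocytes express themselves. The sum of the proliferation markers Mki67, Top2a, and Cdk1 was 574 to 946 RPM in Slc29a3-/-, 224 to 311 RPM in WT, and 147 to 299 RPM in Slc29a3-/- Tlr7-/- Ly6Chi libraries, with 3 of 3 higher in both comparisons. Of the Ly6Chi groups, Slc29a3-/- had the highest mean of Slc28a2 and the lowest mean of Slc29a3. Between the subsets, all 8 neutrophil and all 3 proliferation markers were called higher in Ly6Chi monocytes of each genotype, with neutrophil sums of 1.985 to 2268 RPM in the Ly6Clow libraries. Slc29a1, Slc29a3, and Slc28a2 were called in those 3 comparisons. The part of these cells in the differences of the members was not tested.

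In the Ly6Clow subset the 3 erythroid markers Slc4a1, Alas2, and Klf1 summed to 63.1 to 81.3 RPM in Slc29a3-/-, 0.49 to 6.82 RPM in WT, and 1.61 to 12.2 RPM in Slc29a3-/- Tlr7-/- libraries. The 2 tested of them were called higher in Slc29a3-/- libraries in both comparisons, Klf1 averaged under 1 RPM in all 6 groups, and the adult globin genes are not analysed here. Slc29a1 had its highest values in the same libraries, and the part of erythroid RNA in them was not tested. The sum of 5 dendritic cell markers was 12.7 to 18.3 RPM in Slc29a3-/- Ly6Chi libraries, against 60.1 to 123 RPM in WT and 67.8 to 85.1 RPM in Slc29a3-/- Tlr7-/- libraries, and all 5 were called lower in both comparisons. In Ly6Clow monocytes it was 10.97 to 21.2 RPM in Slc29a3-/-, 32.3 to 53.6 RPM in WT, and 31.98 to 53.1 RPM in Slc29a3-/- Tlr7-/- libraries, with 4 and 3 of 5 markers called lower in Slc29a3-/-. The 6 T and NK cell markers summed to 10.2 to 23.6 RPM in Slc29a3-/-, 72.7 to 283 RPM in WT, and 17.5 to 292 RPM in Slc29a3-/- Tlr7-/- Ly6Chi libraries, and 6 and 2 of them were called lower in Slc29a3-/-. Of the WT Ly6Chi libraries, replicate 4 held the lowest sums, 60.1 RPM for dendritic cell and 72.7 RPM for T and NK cell markers. Replicates 1 to 3 held 119 to 123 RPM and 258 to 283 RPM. In Ly6Clow monocytes their sums were 9.14 to 22.5 RPM in Slc29a3-/-, 43.4 to 80.8 RPM in WT, and 26.4 to 52.7 RPM in Slc29a3-/- Tlr7-/- libraries, with 1 of 5 tested called lower in Slc29a3-/- in each comparison. Against Slc29a3-/- Tlr7-/-, only Cd4 (3.69 against 31.2 RPM) and Cd8a (3.53 against 8.78 RPM) had lower means in Slc29a3-/-. Cd3e, Cd3d, Ncr1, and Klrb1c had higher means, and the median log2 difference of those tested was 0.35. Of the B cell markers, 4 were in the table and summed to 14.6 to 57.8 RPM over all libraries, and the 1 tested was lower in Slc29a3-/- than in WT Ly6Chi and higher than in Slc29a3-/- Tlr7-/- Ly6Clow monocytes. The 5 markers of red pulp macrophages summed to 242.8 to 1509 RPM, with at most 1 of 4 tested called between any pair of genotypes. The 5 pan monocyte markers summed to 11370 to 63030 RPM in all libraries, and the 6 Ly6Clow monocyte markers to 469 to 2165 RPM in Ly6Chi and 5173 to 9747 RPM in Ly6Clow libraries.

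**Figure D3:**
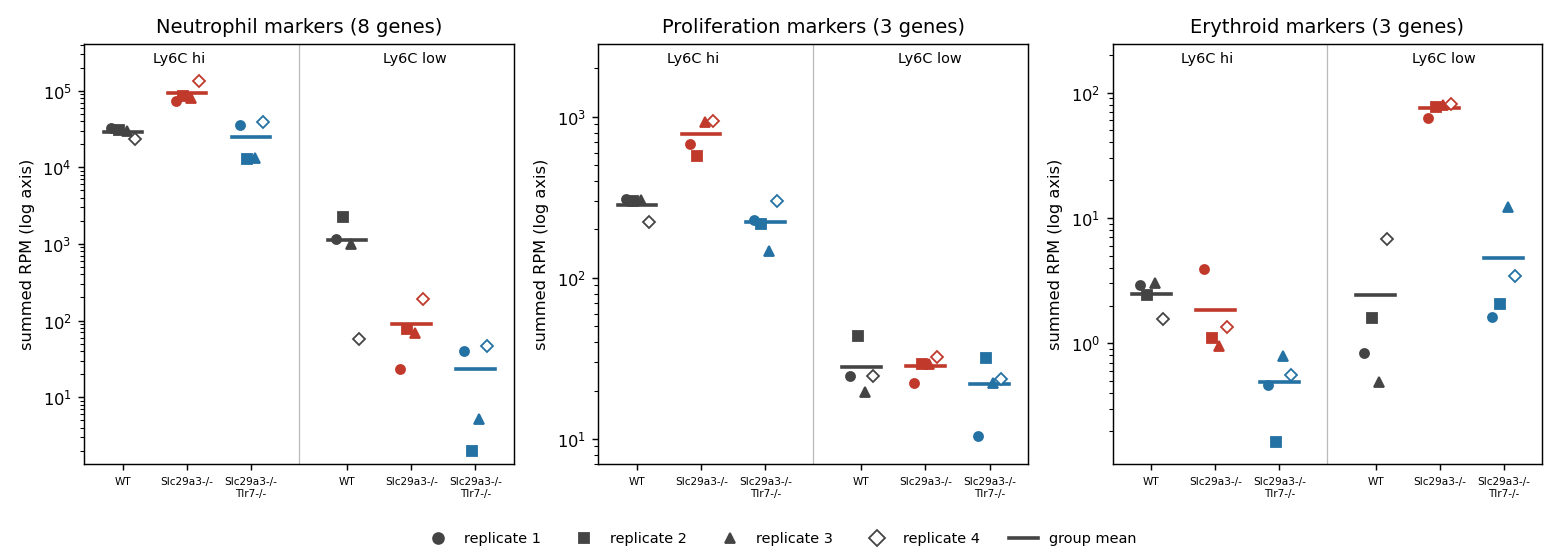
Summed RPM (vertical log axes) of 8 neutrophil, 3 proliferation, and 3 erythroid markers in each library by subset and genotype, with a symbol for each replicate number (replicate 4 is open) and a bar at the group mean. The Slc29a3-/- libraries are highest for neutrophil and proliferation markers in Ly6Chi and for erythroid markers in Ly6Clow monocytes.

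Once inside the cell, nucleosides are phosphorylated by kinases or cut into bases. Around the transporters, 5 lists of such genes held 44 genes, of which 39 were in the table and 33 or 34 were tested. In Ly6Chi monocytes 6 were higher and 5 lower in Slc29a3-/- than in WT (32.4% of those tested, against 27.9% of all genes). None was higher and 1, the Nt5e described below, was lower in Slc29a3-/- Tlr7-/- than in WT (2.94% against 1.46%). With Slc29a3-/- Tlr7-/- monocytes as the reference, 4 were higher and 6 lower in Slc29a3-/- (29.4% against 20.4%). The split of calls depends on scaling. With TMM, 7 and 2 genes of the lists were higher and lower in Slc29a3-/- than in WT, and 6 and 3 than in Slc29a3-/- Tlr7-/-. All genes called between Slc29a3-/- and WT went from 1072 higher and 1877 lower to 1655 higher and 1266 lower with TMM, and those between Slc29a3-/- and Slc29a3-/- Tlr7-/- from 1059 and 1091 to 1420 and 626. In Ly6Clow monocytes 3 and 0, 1 and 3, and 2 and 0 genes were higher and lower in the same 3 comparisons, which is 9.09%, 12.1%, and 6.06% of those tested against 4.64%, 8.87%, and 1.93% of all genes. Against WT replicate 4 alone, only Slc43a3 and Tk1 were still called in Ly6Chi monocytes and no gene of the lists in Ly6Clow monocytes. The effect of Slc29a3-/- differed between the subsets for 9 genes relative to WT (26.5% against 8.85% of all genes) and for 7 relative to Slc29a3-/- Tlr7-/- (20.6% against 8.97%). None of the 9 held with WT replicate 4 alone.

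Of the 9 nucleoside kinases, 2 were higher and 2 lower in Slc29a3-/- than in WT Ly6Chi monocytes, with a list median of -0.28 (all genes -0.14). Tk1, the thymidine kinase of dividing cells, averaged 78.8 ± 24.8 RPM in Slc29a3-/- and 29.3 ± 6.95 RPM in WT (log2 difference 1.38, adjusted p = 0.00098), and 19.3 ± 4.14 RPM in Slc29a3-/- Tlr7-/- monocytes (1.95, adjusted p = 0.00013). Dck, the deoxycytidine kinase, stood at 177 ± 23.4 RPM in Slc29a3-/- and 111 ± 17.9 RPM in WT (0.68, adjusted p = 0.003), but its difference from Slc29a3-/- Tlr7-/-, 0.14, did not pass. Adk, which makes AMP from adenosine, fell from 41.3 ± 3.96 RPM in WT to 23.97 ± 4.65 RPM in Slc29a3-/- (-0.78, adjusted p = 0.0069). At 29.6 ± 6.89 RPM in Slc29a3-/- Tlr7-/- monocytes, it passed neither against WT (-0.49, adjusted p = 0.14) nor against Slc29a3-/- (-0.29, adjusted p = 0.29). Dguok, the mitochondrial deoxyguanosine kinase, was lower in Slc29a3-/- than in Slc29a3-/- Tlr7-/- Ly6Chi monocytes (-0.69, adjusted p = 0.021; lost with TMM and RLE). In Ly6Clow monocytes the 1 kinase called was Uckl1, related to the uridine and cytidine kinases, which was lower in Slc29a3-/- Tlr7-/- than in WT (-0.87, adjusted p = 0.012). Between the subsets Tk1, Dck, and Uck2, a uridine and cytidine kinase, were higher in Ly6Chi monocytes of all 3 genotypes, by 1.56 to 3.66, though Uck2 was lost in WT with replicate 4 alone.

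Of the 7 tested genes of nucleoside breakdown and base salvage, 3 were higher and none lower in Slc29a3-/- than in WT Ly6Chi monocytes (list median 0.46), and 1 was higher and 1 lower than in Slc29a3-/- Tlr7-/- monocytes (0.42). Ada, which deaminates adenosine, averaged 72.6 ± 29.3 RPM in Slc29a3-/-, 20.7 ± 3.26 RPM in WT (1.69, adjusted p = 0.0012), and 16.8 ± 6.85 RPM in Slc29a3-/- Tlr7-/- Ly6Chi libraries (2.05, adjusted p = 0.00035). The salvage enzymes Hprt and Aprt, which rebuild nucleotides from bases, were higher in Slc29a3-/- than in WT by 0.57 (adjusted p = 0.025) and 0.55 (adjusted p = 0.030). Xdh, which oxidises hypoxanthine to uric acid, was lower in Slc29a3-/- than in Slc29a3-/- Tlr7-/- Ly6Chi monocytes (-0.53, adjusted p = 0.037; lost with TMM and RLE). In Ly6Clow monocytes Aprt was lower in Slc29a3-/- Tlr7-/- than in WT (-1.08, adjusted p = 0.032). Between the subsets, Ada and Aprt were higher in Ly6Chi monocytes of all 3 genotypes (in WT not with replicate 4 alone), and Gda, the guanine deaminase, in Slc29a3-/- (0.82) and Slc29a3-/- Tlr7-/- monocytes (0.89). The effect of Slc29a3-/- on Ada differed between the subsets, by 2.24 relative to WT (adjusted p = 0.0015; lost with WT replicate 4 alone) and by 2.51 relative to Slc29a3-/- Tlr7-/- (adjusted p = 0.00086).

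Of the 6 tested genes of lysosomal nucleic acid breakdown, which act upstream of Slc29a3, none was higher and 2 were lower in Slc29a3-/- than in WT Ly6Chi monocytes. Pld3, a lysosomal exonuclease, stood at 15.9 ± 1.18 RPM in Slc29a3-/- and 33.8 ± 2.33 RPM in WT (-1.04, adjusted p = 0.0013), and Dnase2a, the lysosomal DNase, at 49.5 ± 5.60 and 72.0 ± 1.26 RPM (-0.54, adjusted p = 0.013; lost with TMM). Relative to Slc29a3-/- Tlr7-/- monocytes, the exonuclease gene Pld4 (-0.93, adjusted p = 0.0097) and Smpdl3a, a phosphodiesterase of nucleotides (-0.62, adjusted p = 0.016), were lower. In Ly6Clow monocytes Acp5, an acid phosphatase, was the 1 gene of the list called between Slc29a3-/- and WT, at 364 ± 93.9 against 133 ± 14.2 RPM (1.42, adjusted p = 0.0005). It was also higher than in Slc29a3-/- Tlr7-/- Ly6Clow monocytes (1.20, adjusted p = 0.0028). Pld3, unlike in Ly6Chi monocytes, was higher in Slc29a3-/- than in Slc29a3-/- Tlr7-/- Ly6Clow monocytes (1.17, adjusted p = 0.031; lost with RLE) and lower in Slc29a3-/- Tlr7-/- than in WT (-0.94, adjusted p = 0.042; lost with RLE). The effect of Slc29a3-/- on Pld3 differed between the subsets by -1.28 relative to WT (adjusted p = 0.013; lost with WT replicate 4 alone) and by -1.64 relative to Slc29a3-/- Tlr7-/- (adjusted p = 0.0024). Acp5 was higher in Ly6Clow than in Ly6Chi monocytes of all 3 genotypes, as Acp2 and Smpdl3a were, the latter 2 in WT not with replicate 4 alone.

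Of the genes that make or sense adenosine outside the cell, Nt5e, the ectonucleotidase CD73, was at 4.35 ± 2.43 RPM in WT and lower in mutant Ly6Chi monocytes. It stood at 0.08 ± 0.11 RPM in Slc29a3-/- (adjusted p = 0.0015) and at 0.49 ± 0.41 RPM in Slc29a3-/- Tlr7-/- libraries (adjusted p = 0.047). Nt5e passed the filter on low values mainly through the WT libraries, where it was high. Only a fall in the mutants could therefore be called, and the levels stand as a description. With TMM or RLE scaling, or with WT replicate 4 alone, Nt5e did not pass the filter on low values in the Ly6Chi fit and was not tested. Entpd1, the ectonucleotidase CD39, was lower in Slc29a3-/- than in Slc29a3-/- Tlr7-/- Ly6Chi monocytes (-0.63, adjusted p = 0.011) and higher in Ly6Clow than in Ly6Chi monocytes of all 3 genotypes (in WT not with replicate 4 alone). The adenosine receptor gene Adora2a was higher in Ly6Clow than in Ly6Chi monocytes of Slc29a3-/- mice (-0.99, Ly6Chi against Ly6Clow, adjusted p = 0.0033). Cd38, an ectoenzyme that degrades NAD, was higher in Slc29a3-/- than in WT Ly6Clow monocytes (14 ± 6.13 against 4.45 ± 1.31 RPM, 1.39, adjusted p = 0.022). Of the other 7 transporters, Slc43a3, which carries purine bases, rose in Slc29a3-/- Ly6Chi monocytes, with 132 ± 26.9 RPM against 36.9 ± 7.59 RPM in WT (1.82, adjusted p = 0.00023) and 30.4 ± 11.3 RPM in Slc29a3-/- Tlr7-/- (2.13, adjusted p = 1e-04). Slc17a9, the vesicular nucleotide transporter, was higher than in Slc29a3-/- Tlr7-/- by 1.58 (adjusted p = 0.0031). Slc15a3, a lysosomal transporter of histidine and peptides, was lower than in Slc29a3-/- Tlr7-/- Ly6Chi (-0.75, adjusted p = 0.031; lost with TMM and RLE) and higher than in WT Ly6Clow monocytes (0.80, adjusted p = 0.026; lost with RLE). Abcc4, an exporter of cyclic nucleotides, was higher in Slc29a3-/- Tlr7-/- than in WT Ly6Clow monocytes (0.72, adjusted p = 0.030). Between the subsets, Slc43a3 and Slc17a9 were higher in Ly6Chi, and Slc15a4 and Slc46a3, lysosomal transporters, higher in Ly6Clow monocytes of all 3 genotypes, and in WT none of these 4 was called with replicate 4 alone. Over all 5 lists, 17, 25, and 16 of 34 genes were called between the subsets in WT, Slc29a3-/-, and Slc29a3-/- Tlr7-/- monocytes, or 50.0%, 73.5%, and 47.1% against 29.6%, 41.2%, and 33.3% of all genes. With WT replicate 4 alone, the 17 fell to 3, which were Tk1, Dck, and Acp5.

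**Figure D4:**
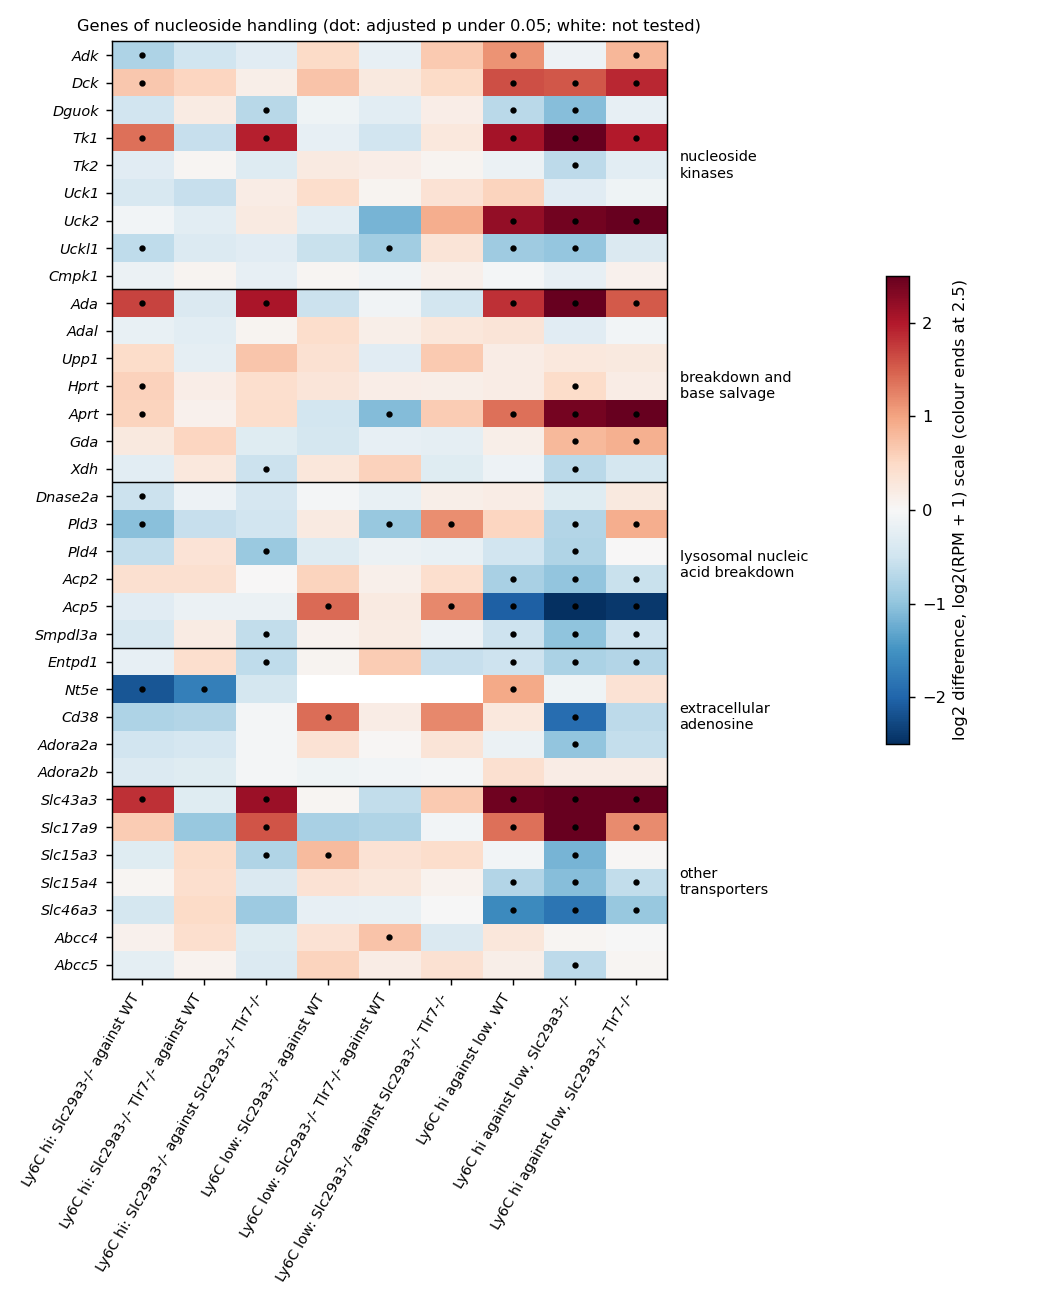
Log2 differences (colour, on the log2(RPM + 1) scale, saturated at 2.5) of the 34 tested genes of nucleoside handling (rows, grouped by list) in 9 comparisons (columns); dots mark an adjusted p under 0.05 in limma, and white cells were not tested. Tk1, Ada, and Slc43a3 are red with a dot in both columns that set Slc29a3-/- Ly6Chi monocytes against another genotype.

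The genes whose levels followed each member most closely over the 24 libraries, among 10342 genes with a mean of at least 1 RPM, are given as a description. The 3 genes nearest to Slc29a3 were Fam129b (Pearson r = 0.975), Stom (0.975), and Tgfbi (0.974), whose r within the 12 libraries of a subset was 0.904, 0.840, and 0.848 in Ly6Chi and 0.652, 0.736, and 0.600 in Ly6Clow monocytes. For Slc29a1 they were Itgb1 (0.960), Hfe (0.950), and Arhgef3 (0.942). Their r was 0.847, 0.581, and 0.468 within Ly6Chi and 0.901, 0.873, and 0.876 within Ly6Clow libraries. Slc28a2 was followed by Pwp1 (0.949), Abhd5 (0.948), and the maintenance DNA methyltransferase gene Dnmt1 (0.947), with r within the subsets of 0.906 to 0.942 in Ly6Chi and 0.813 to 0.886 in Ly6Clow monocytes. For the low Slc29a2 the nearest genes reached only 0.550 to 0.657 (Frg1, Tpmt, and Asb8). The points share their libraries and the 2 subsets, and the pooled r of Slc29a3, Slc29a1, and Slc28a2 spans the difference between the subsets.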

How the data were processed

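RNA of 24 libraries from sorted splenic monocytes was read with the Ion AmpliSeq Transcriptome Mouse kit. The authors deposited 1 table of RPM values for 23930 amplicons. The submitters' processing notes name the build mm10. The methods of the study name the AmpliSeqRNA plug-in of Torrent Suite and also Cutadapt, STAR, HTSeq, and DESeq2, and do not state which of them wrote the table. Each library sums to 1000000 RPM, so that a few very abundant genes lower all others. A value of 0.0001 was set to 0, and 27 gene names turned into dates were repaired. Counts are not in the table, and reads per library were inferred from the step between values under 5 RPM, 100.0% of which were whole multiples of it within 0.1 read.

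Genes that reached 1 RPM in 4 or more libraries of a fit were transformed to log2(RPM + 1) and fitted with limma 3.58.1 in R 4.3.3, with an intensity trend and Benjamini-Hochberg adjustment. Genotypes were compared in 1 fit per subset, and all 24 libraries were fitted for differences between subsets and interactions. Members and gene lists were chosen with earlier results of these data known. A further 2 genes fixed as markers were left out of their lists and are not reported here. All members were named, with the 3 genes of highest Pearson r to each member over 1 RPM and up to 3 called genes per list and comparison with the largest change. The fit was tested on simulated data. The labels give no animal for a replicate number. Deviations of same-numbered Ly6Chi and Ly6Clow libraries correlated at 0.259 to 0.619 in WT, where replicates 2 and 3 matched another number better than their own. WT replicates 1 to 3 stood apart from replicate 4 in both subsets, so the WT values cannot show pairing by animal. The correlations were -0.081 to 0.255 in Slc29a3-/- and -0.456 to 0.338 in Slc29a3-/- Tlr7-/- mice. Libraries were compared in pairs, and no 2 of a group agreed within sampling noise. Alternatives were scaling by TMM or RLE, no filter on low values, a filter at a mean of 10 RPM, 0.1 as pseudocount, the thresholds of the study (fold change over 1.5 and unadjusted p under 0.05), the replicate number as a block, 1 fit of all libraries, WT replicate 4 as the only WT library, and each library left out in turn. For the lists of nucleoside handling, scaling and WT replicate 4 alone were tried after seeing the data. Positions and sequence are from GENCODE M21 on mm10. Python 3.11.15, pandas 2.3.3, and Biopython 1.88 made the tables, and matplotlib 3.10.9 the figures.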

Additional observations from a re-analysis of the deposited data

Results flagged for a closer look

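Of the 24 sets of 4 libraries (4 members in 6 groups), 1 held a library far from the other 3, and chance alone flags about 1 in 20. Slc29a2 was read at 3.25 RPM in Slc29a3-/- Tlr7-/- Ly6Chi replicate 2, while the other 3 libraries of that group held 0.87 to 1.15 RPM. The same library held the highest Slc29a3 value, 413 RPM. No difference of a genotype effect between the subsets was called for a member.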

How the results depend on the processing

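Slc29a1, Slc29a3, and Slc28a2 had 36 differences, of which 7 changed sign under some alternative, none of them called. Against WT replicate 4 alone, these were Slc29a1 in Slc29a3-/- (-0.066) and Slc28a2 in Slc29a3-/- Tlr7-/- (-0.058) Ly6Chi monocytes, Slc29a3 (-0.348) and Slc28a2 (-0.014) in Slc29a3-/- and Slc29a1 (-0.098) and Slc29a3 (-0.437) in Slc29a3-/- Tlr7-/- Ly6Clow monocytes, and the interaction of Slc29a1 for Slc29a3-/- Tlr7-/- against WT (0.418; 0.013 with a pseudocount of 0.1). The number of members called between Slc29a3-/- and WT Ly6Chi monocytes became 0 against WT replicate 4 alone, and that between Slc29a3-/- and Slc29a3-/- Tlr7-/- became 1 with TMM scaling and 1 without a filter. Between Slc29a3-/- and WT Ly6Clow monocytes it became 1 with TMM scaling, 1 with RLE scaling, 1 in a fit of all 24 libraries, and 1 at the thresholds of the study, which 13.2% of all genes passed. Those thresholds also gave 1 member between Slc29a3-/- and Slc29a3-/- Tlr7-/- Ly6Clow monocytes (13.7% of all genes) and 2 members each in the interactions for Slc29a3-/- against WT (20.2%) and against Slc29a3-/- Tlr7-/- (22.6%). With 1 library left out at a time, the count ran from 1 to 2 between Slc29a3-/- and Slc29a3-/- Tlr7-/- Ly6Chi monocytes, and from 0 to 1 between Slc29a3-/- and WT Ly6Clow monocytes and in both of those interactions. The differences ran from -0.059 to 0.264 for Slc29a1 (Slc29a3-/- against WT, Ly6Chi), from -0.048 to 0.311 for Slc28a2 (Slc29a3-/- Tlr7-/- against WT, Ly6Chi), from -0.037 to 0.292 for Slc29a3 (Slc29a3-/- Tlr7-/- against WT, Ly6Clow), and from -0.192 to 0.259 for the interaction of Slc29a1 for Slc29a3-/- Tlr7-/- against WT. The cause of these shifts was not tested, and the fit with WT replicate 4 alone has fewer samples. Slc29a2 was called under none of its alternatives.

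The replicate number as a block changed no call of a member. Slc28a2 stayed called in Slc29a3-/- Ly6Chi monocytes (1.18, adjusted p = 0.00055), and 3 members were called between the subsets of WT. Slc29a1 in Slc29a3-/- against WT Ly6Clow monocytes had an adjusted p of 0.11. Across genotypes the numbers did not pair: same-numbered libraries correlated at -0.187 to 0.153. Over all genes the block lowered the calls between Slc29a3-/- Tlr7-/- and WT Ly6Chi monocytes from 154 to 43. TMM scaling moved the median of all genes from -0.14 to 0.02 between Slc29a3-/- and WT Ly6Chi monocytes. The planned count tests on reads recovered from the steps were not run, since the table holds RPM. At 3 reads or fewer, depth limits what can be said of Slc29a4, Slc28a3, and Slc28a1.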
